A study of Mus musculus with 6 samples.

Results

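The genes described here are 8 genes by which endothelium sets the balance between clotting and clot removal: F3, Tfpi, Thbd, Procr, Vwf, Plat, Plau and Plaur. They were chosen by gene name, with a rule that uses no measured value, and with earlier results of these data known. Each name had 1 row among the 49315 genes of the count table. All 8 were among the 18234 genes with 5 or more counts in 2 or more samples and so could be tested. The RNA came from bEND.3 cells, an immortalized mouse line of brain endothelium kept in medium with fetal bovine serum. Cells of both groups were transfected with Lipofectamine 2000 and received 100 nM of an antisense oligonucleotide with locked nucleic acid ends (a GapmeR), which directs RNase H to cut the RNA it pairs with. In the GapmeR group (n = 4) the oligonucleotide was directed at the long noncoding RNA Gm39822, and in the negative control group (n = 2) it was a control GapmeR; no other treatment was given to either group. The study describes 4 samples in each group, and 2 control samples have labelled columns and were used here. The groups are of 1 cell line with 1 GapmeR sequence each as labelled, and the labels do not say that the samples came from separate cultures, so the p-values measure the spread between these samples, which may be technical.

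Tissue factor, the product of F3, starts coagulation when it meets clotting factors of the blood, and resting endothelium keeps little of it and makes its inhibitor, tissue factor pathway inhibitor (Tfpi). Thrombomodulin (Thbd) and the endothelial protein C receptor (Procr) turn thrombin toward activating protein C, an anticoagulant. Von Willebrand factor (Vwf) is stored in Weibel-Palade bodies of endothelial cells and tethers platelets once it is released. Tissue-type plasminogen activator (Plat) and urokinase (Plau) cut plasminogen into plasmin, which dissolves fibrin, and the urokinase receptor (Plaur) holds urokinase at the cell surface.

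The promoter windows of 3 members carry the recognition sequence of the AP-1 transcription factors, and they are printed because 1 of them, Plaur, was among the genes that fell. Windows were at hand for Plaur, Procr, F3 and Tfpi only, so Plat and Thbd, which also fell, were not searched. The sequences are the 250 bases before a transcript start in RefSeq, on the forward strand of GRCm38.p6 (mm10), with each match to the AP-1 sequence TGANTCA in capitals. The windows lie at chr7:24462233-24462482 for Plaur, chr2:155750967-155751216 for Procr and chr3:121723287-121723536 for F3. The starts used for Plaur and Procr lie inside the gene spans given below. The window of Plaur thus lies wholly inside its gene span, and that of Procr in part.
Plaur: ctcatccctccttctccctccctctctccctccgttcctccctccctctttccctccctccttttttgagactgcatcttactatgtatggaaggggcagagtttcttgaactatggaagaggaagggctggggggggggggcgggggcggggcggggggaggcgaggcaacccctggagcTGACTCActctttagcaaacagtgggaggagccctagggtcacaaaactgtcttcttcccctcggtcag
Procr: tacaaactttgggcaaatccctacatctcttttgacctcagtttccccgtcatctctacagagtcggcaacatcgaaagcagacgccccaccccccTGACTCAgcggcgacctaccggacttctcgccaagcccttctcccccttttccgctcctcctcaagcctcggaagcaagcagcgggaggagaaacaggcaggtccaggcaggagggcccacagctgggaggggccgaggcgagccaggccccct
F3: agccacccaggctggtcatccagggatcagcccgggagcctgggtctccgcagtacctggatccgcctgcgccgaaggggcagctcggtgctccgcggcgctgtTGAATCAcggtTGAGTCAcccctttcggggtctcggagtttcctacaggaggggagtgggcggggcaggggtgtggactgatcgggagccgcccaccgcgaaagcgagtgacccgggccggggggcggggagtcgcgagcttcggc
The match began 69 bases before the start in Plaur, 154 before it in Procr, and 146 and 135 before it in F3. TGANTCA reads the same on both strands, and 7.81% of 32851 mouse windows of 300 bases (250 before and 50 after the start) held it. The 2 windows of Tfpi held none. The GC box GGGCGG, counted on both strands and present in 35.7% of all windows, occurred 3 times in Plaur, where the copies abut or overlap, and 3 times in F3. Each window of Tfpi held 1. The TATA box TATAAA, present in 13.6% of all windows, had 1 match in F3, after the start, and 1 in Tfpi. An NF-kB sequence, present in 8.46% of all windows, had no match in the form searched. The motifs were chosen after sequences and results had been seen. Of the 3 genes shown, Plaur fell and Procr and F3 did not pass the test, as described next. A match is a description of the letters and not a bound site.

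The 6 libraries held 29261988 to 37117934 counts, so that 3 counts, taken as the limit of detection, corresponded to 0.0771 to 0.110 CPM (counts per library of 1000000 counts). Gm39822 (ENSMUSG00000110618), the targeted RNA, had 2, 1, 4 and 2 counts after knockdown, against 61 and 56 counts in the controls, which is a log2 fold change of -4.82 (SE 0.41, adjusted p = 8.8e-08, edgeR quasi-likelihood). In each of the 6 samples its level matched the label. Of all genes tested, 8268 (45.3%) passed an adjusted p of 0.05, with 4625 higher (25.4%) and 3643 lower (20.0%), so a called gene is common in these data. The median log2 fold change of all genes was 0.03 with the scaling used here (trimmed mean of M values, TMM). With scaling by library size alone it was 0.17, and the share of called genes that were higher was 74.1% in place of 55.9%.

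Knockdown of Gm39822 was accompanied by lower transcripts of 3 of the 8 genes. Plaur and Plat fell by a little over 1 log2 unit and Thbd by 0.54, while F3, Tfpi, Procr, Vwf and Plau did not pass the test. In edgeR, 3 members (37.5%) were lower, beside 20.0% of all genes, and 0 were higher, beside 25.4%. The counts at an unadjusted p under 0.05 were also 3 and 0, and DESeq2 and limma-voom gave the same 3 and 0. The median log2 fold change of the 8 genes was -0.15, and 6 had a negative and 2 a positive value. Together they held 0.288% to 0.314% of all counts in the GapmeR samples, against 0.328% to 0.333% in the controls.

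**Figure D1:**
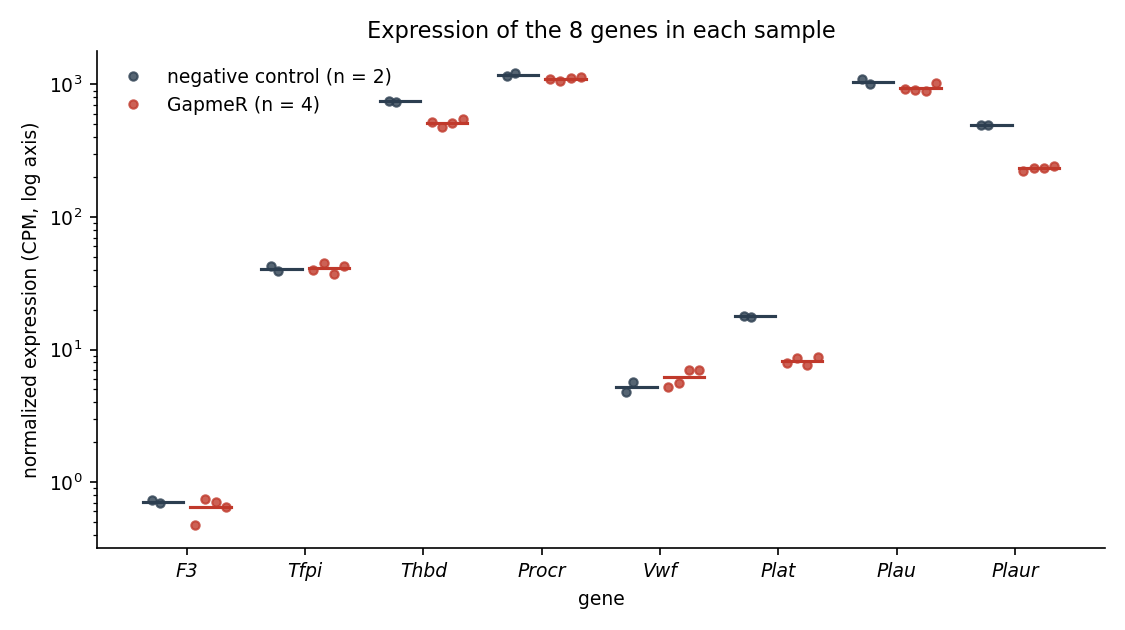
Normalized expression in CPM (log axis) of the 8 genes in each of the 2 negative control and 4 GapmeR samples, with a line at each group mean. The groups lie apart for Thbd, Procr, Plat and Plaur, each lower in the GapmeR samples, and overlap for F3, Tfpi, Vwf and Plau.

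The receptor for urokinase had the smallest adjusted p of the 8 genes. Plaur (ENSMUSG00000046223, chr7:24460937-24475970 in mm10) had 223, 235, 233 and 244 CPM in GapmeR samples 1 to 4, against 491 and 498 CPM in the controls. All 4 GapmeR samples lay below both controls, and the spread inside each group was small beside the gap. The means were 234 ± 8.37 (SD, n = 4) and 495 ± 4.63 CPM (SD, n = 2), a fall of 52.7%, or 2.12-fold. Its log2 fold change was -1.08 (SE 0.07, 95% interval -1.23 to -0.93, adjusted p = 3.1e-09 from edgeR).

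Plat, the gene of tissue-type plasminogen activator (ENSMUSG00000031538, chr8:22757722-22782848), was expressed far more weakly and fell to a like degree. It had 7.85, 8.66, 7.61 and 8.85 CPM in the GapmeR samples, against 18.0 and 17.5 CPM in the controls, from 236 to 337 and from 492 to 560 counts. The highest GapmeR sample lay well below the lower control, so the groups did not overlap. The means were 8.24 ± 0.605 (SD, n = 4) and 17.8 ± 0.292 CPM (SD, n = 2), a fall of 53.5%, or 2.15-fold. This was a log2 fold change of -1.11 (SE 0.10, 95% interval -1.32 to -0.89, adjusted p = 2.7e-07 from edgeR).

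Plau, the gene of urokinase (ENSMUSG00000021822, chr14:20836662-20843388), had 917, 903, 888 and 1024 CPM in the GapmeR samples, against 1092 and 1009 CPM in the controls. GapmeR sample 4 lay above control 2, so the groups overlapped, and the other 3 GapmeR samples lay below both controls. On the log2 scale the difference was -0.17 (SE 0.08, 95% interval -0.34 to 0.00, adjusted p = 0.101 from edgeR), and without GapmeR sample 4 it was -0.22, with an adjusted p of 0.0473 from edgeR. An exon of Plau overlaps that of the noncoding gene Gm63115 on the opposite strand in the GRCm39 annotation, and the strand setting of the counting is not given in the sources used here. The interval of Plau did not reach those of Plat and Plaur, and the ratios between these genes are given further on.

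Of the genes of protein C activation, Thbd passed the test and Procr did not. Thbd (ENSMUSG00000074743, chr2:148404471-148408188) has 1 exon in its canonical transcript. It had 517, 479.8, 512 and 545 CPM in the GapmeR samples, against 752 and 739 CPM in the controls. The groups lay far apart beside their own spread. The means were 514 ± 26.8 (SD, n = 4) and 745 ± 8.90 CPM (SD, n = 2), a fall of 31.1%, or 1.45-fold. The log2 fold change was -0.54 (SE 0.07, 95% interval -0.70 to -0.38, adjusted p = 2.4e-05 from edgeR). In the GRCm39 annotation all exons of Thbd cover 7313 bases, beyond the 3723 of the canonical transcript. There the span of Thbd overlaps Sstr4 on the opposite strand, with no shared exon. Sstr4 had 70 to 85 counts in the GapmeR samples, against 15 to 21 in the controls, while Thbd had at least 15894 counts in every sample.

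Procr (ENSMUSG00000027611, chr2:155751125-155755478) had 1099, 1063, 1122 and 1147 CPM in the GapmeR samples, against 1156 and 1214 CPM in the controls. Every GapmeR sample lay below both controls, but by little: the means were 1108 ± 35.4 (SD, n = 4) and 1185 ± 40.7 CPM (SD, n = 2). On the log2 scale Procr differed by -0.10 (SE 0.08, 95% interval -0.26 to 0.06, adjusted p = 0.312 from edgeR), and with scaling by library size alone its sign turned, to 0.05. With Procr, 4 members had groups that did not overlap, all of them lower, beside 59.2% of all genes in either direction and 27.3% lower.

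Neither the initiator of coagulation nor its inhibitor passed the test. F3 (ENSMUSG00000028128, chr3:121723537-121735052) was weakly expressed in all samples, with 16, 29, 22 and 21 counts in the GapmeR samples, against 20 and 22 counts in the controls. The range of the GapmeR samples, 0.472 to 0.745 CPM, enclosed the controls at 0.730 and 0.689 CPM. The log2 fold change was -0.14 (SE 0.32, adjusted p = 0.762 from edgeR), with a 95% interval from -0.82 to 0.55. Changes of F3 inside that interval were compatible with these low counts and few samples, and larger ones could also be missed by the test. Exons of F3 overlap those of Gm64338 and Gm43823 on the opposite strand in GRCm39, and Gm43823 had at most 1 count in any sample.

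Tfpi (ENSMUSG00000027082, chr2:84432855-84476775) had 40.2, 45.1, 37.4 and 43.1 CPM in the GapmeR samples, against 42.4 and 39.3 CPM in the controls, and the controls lay inside the GapmeR range. Its log2 fold change was 0.02 (SE 0.09, adjusted p = 0.854 from edgeR). Its 95% interval ran from -0.16 to 0.20, which leaves out changes of the size seen for Plaur, Plat and Thbd.

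Vwf (ENSMUSG00000001930, chr6:125552948-125686679), a gene of 52 exons, had 178, 219, 217 and 226 counts in the GapmeR samples, against 132 and 180 counts in the controls. In CPM these were 5.25, 5.63, 6.996 and 6.996 against 4.82 and 5.64 CPM, so that GapmeR samples 1 and 2 fell between the controls and samples 3 and 4 lay above them. The log2 fold change was 0.24 (SE 0.16, 95% interval -0.09 to 0.58, adjusted p = 0.223 from edgeR). Without GapmeR samples 3 and 4 it was 0.08, a setting chosen after the data were seen. With 5.23 ± 0.581 CPM (SD, n = 2) in the controls, Vwf was a weakly expressed gene in this line.

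**Figure D2:**
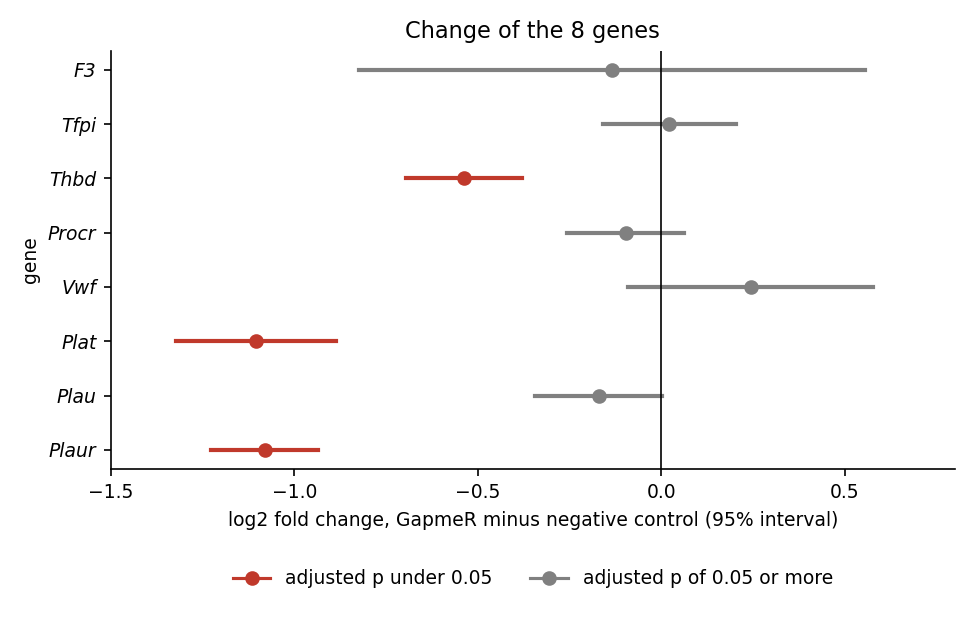
Log2 fold change (GapmeR minus negative control) of the 8 genes with 95% intervals from edgeR, 4 GapmeR against 2 control samples, red where the adjusted p was under 0.05. The intervals of Plaur, Plat and Thbd lie below 0, those of the other 5 genes include 0, and that of F3, at 16 to 29 counts, is the widest of the 8.

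Divided by the length of all exons of each gene, the control levels ran from 580 CPM per kb for Procr through Plau (409), Plaur (124), Thbd (102), Tfpi (6.65), Plat (2.55) and Vwf (0.313) to F3 (0.229). Procr and Plau thus stood at the top of the list, at percentiles 99.8 and 99.6 by level per kb, and Vwf and F3 at 27.4 and 23.6. These percentiles set the control level beside the levels of the 17965 tested genes with a known exon length, averaged over all 6 samples. In the GapmeR samples the order was the same but for Thbd, at 70.2 CPM per kb, which then stood above Plaur, at 58.5. No neighbours in either order overlapped between samples of a group, although with 2 controls that is a weak check. The exchange of Thbd and Plaur depended on the length used: with the canonical transcript in place of all exons, a choice made after the data were seen, Plaur stayed above Thbd, at 152 against 138 CPM per kb in the GapmeR samples and 321 against 200.2 in the controls.

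Ratios between genes inside each sample do not depend on the scaling between samples, and 4 of them were compared with an exact 2-sided permutation test over the 15 ways of dividing the 6 samples, which cannot give a p below 0.0667. The log2 ratio of Plat to Plau, the plasminogen activators, was -6.87, -6.70, -6.86 and -6.85 in the GapmeR samples, against -5.92 and -5.84 in the controls. The groups lay apart by 0.94 on average. The log2 ratio of urokinase to its receptor, Plau to Plaur, was 1.93 to 2.07 in the GapmeR samples, against 1.02 and 1.15 in the controls, so there was more Plau transcript for each Plaur transcript after knockdown, with a mean difference of 0.91. Thbd to Procr had a mean log2 ratio of -1.11 ± 0.04 (SD, n = 4) in the GapmeR samples and -0.67 ± 0.07 (SD, n = 2) in the controls.

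For F3 to Tfpi the groups overlapped, with means of -5.99 and -5.81 (exact permutation p = 0.533). The other 3 ratios lay apart, each with the smallest exact permutation p of 0.0667, adjusted to 0.0889 over the 4 ratios, so none passed 0.05 and none could have.

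**Figure D3:**
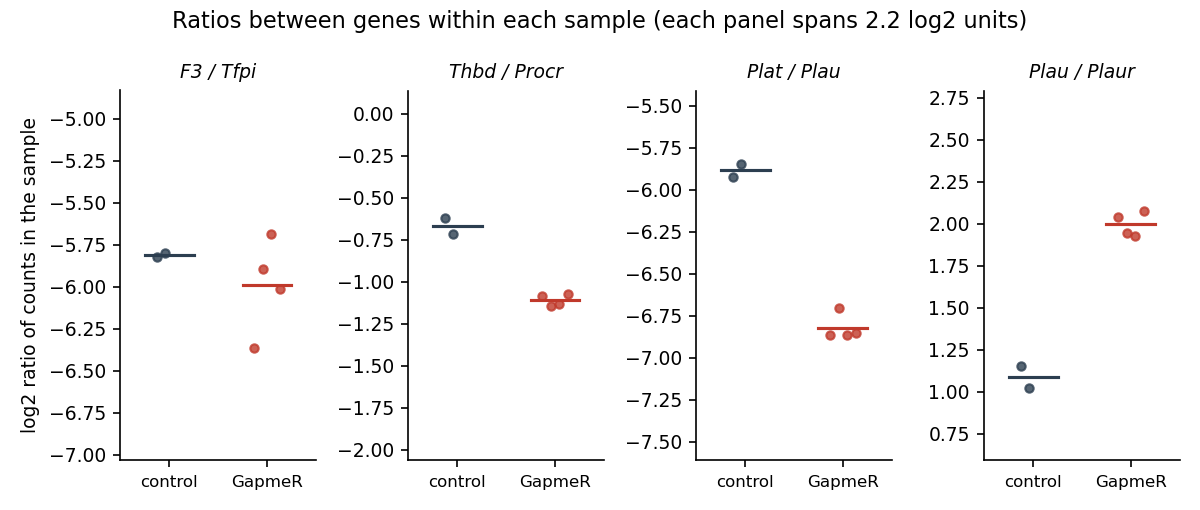
Log2 ratio of counts (0.5 added to each) of 4 gene pairs in each of the 2 control and 4 GapmeR samples, with a line at each group mean and the same span of 2.2 log2 units in every panel. F3 to Tfpi overlaps between the groups, Plau to Plaur is higher in the GapmeR samples, and Thbd to Procr and Plat to Plau are lower.

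The other genes of these pathways were divided into 6 lists by role, 66 genes in all, of which 44 were tested. In edgeR 15 of the 44 were higher (34.1%, beside 25.4% of all genes) and 15 lower (34.1%, beside 20.0%), with a median log2 fold change of -0.06, beside 0.03 for all genes. The higher genes include F2, Klkb1 and Adamts13, which had 0 counts in both controls and passed the filter on low counts through the GapmeR samples alone, so their direction was fixed by the filter. Where 10 counts were required of each sample, 8 were higher. The counts of each list below are to be read beside the shares of all genes, 25.4% higher and 20.0% lower.

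Around plasmin, 8 of 13 partners were tested, of which 3 were higher, 1 was lower and 4 did not pass, with a median log2 fold change of 0.29. Serpinf2, which encodes the plasmin inhibitor alpha-2-antiplasmin, had 469 to 585 counts in the GapmeR samples, against 8 and 10 in the controls, a log2 fold change of 5.63. Mrc2, an endocytic receptor that associates with the urokinase receptor, was higher by 1.77, and the plasminogen receptor Plgrkt by 0.45, which did not pass without control 1 (adjusted p = 0.0605 from edgeR). Anxa2, whose protein gathers plasminogen and tissue-type activator at the cell surface, was lower by a small amount (log2 fold change -0.29), and it did not pass with scaling by library size alone (-0.14), with the replicate number as a block on 4 samples (-0.25), without either control or without GapmeR samples 3 and 4. Its partner S100a10 (-0.14) and the protease inhibitor Serpine2 (0.14, with 12 to 35 counts) did not pass. Plasminogen itself (Plg) had at most 1 count in any sample.

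Among anticoagulant proteins, 5 of 10 were tested, with 2 higher, 2 lower, 1 not passing and a median of -0.14. Proz, which encodes a cofactor for an inhibitor of activated factor X, had 73 to 138 counts in the GapmeR samples, against 8 and 11 in the controls (log2 fold change 3.13), and Serpinc1, which encodes antithrombin, had 130 to 171 against 50 and 56 counts (1.35). Hs3st1, an enzyme that makes the antithrombin-binding sites of heparan sulfate, fell by 1.05 on the log2 scale. Anxa5, whose protein covers exposed phosphatidylserine, was lower, with a fitted log2 fold change of -0.26 between the groups. Anxa5 did not pass with scaling by library size alone, with the replicate block, without either control or without GapmeR samples 3 and 4. Protein S (Pros1) had a log2 fold change of -0.14 and did not pass. Tfpi2 was not tested, with at most 1 count in any sample. Protein C itself (Proc), the substrate of the Thbd and Procr pathway, had at most 5 counts in any sample and was not tested.

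Of the clotting factors and fibrinogen chains, 7 of 15 were tested, with 3 higher, 1 lower and 3 not passing. F8, made by endothelium in the body, was the only one of them above 1 CPM on average and was lower, with 22.3 to 26.4 CPM in the GapmeR samples, against 32.0 and 34.5 CPM in the controls (log2 fold change -0.48, SE 0.09, adjusted p = 0.00028 from edgeR). The 3 higher genes were F5, F2 and Klkb1, named after their values were seen, and all had at most 39 counts in any sample. F2 and Klkb1 had no count in either control and passed the filter through the GapmeR samples alone. Their direction was thus fixed by the filter, and no fold is given. The list had a median of 1.26, which includes F2 and Klkb1 and so is not read as a shift of the list. Of the vitamin K cycle and the secretion of clotting factors, all 5 genes were tested, with 1 higher, 2 lower, 2 not passing and a median of -0.15: Ggcx, the carboxylase, rose by 0.64 on the log2 scale, and Lman1 and Mcfd2, the receptor pair that carries factors V and VIII from the endoplasmic reticulum, fell by 0.46 and 0.28. Mcfd2 did not pass with scaling by library size alone or without either control.

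The thrombin receptor F2r was lower, with 90 to 115 counts in the GapmeR samples, against 129 and 143 in the controls (log2 fold change -0.55), and F2rl3 was higher (0.45). They were the 2 of 4 protease-activated receptors tested, their median was -0.05, and F2r did not pass with scaling by library size alone or without either control, nor F2rl3 without control 2.

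Genes for the storage and release of Vwf passed the test in both directions, while Vwf did not. Over all genes tested, 25.4% were higher and 20.0% lower, so calls in both directions are common. Of 19 listed, 17 were tested, with 5 higher, 8 lower and 4 not passing, and a median of -0.39. The count of higher genes was 1 without control 2, and 3 with DESeq2, with the replicate block or without GapmeR sample 4. Selp, which encodes P-selectin, a cargo of the same Weibel-Palade bodies, had 60.6, 51.9, 57.3 and 57.6 CPM in the GapmeR samples, against 191 and 195 CPM in the controls, a log2 fold change of -1.76 (SE 0.07, adjusted p = 1.5e-11 from edgeR). Angpt2, another cargo, fell by 1.87 on the log2 scale. Rab27a, a small GTPase of Weibel-Palade bodies, was higher, with 155 to 265 counts in the GapmeR samples, against 105 and 113 in the controls (log2 fold change 0.68), and did not pass without control 2. Unc13d, a factor of granule priming, had 1252 to 1473 counts in the GapmeR samples, against 47 and 60 in the controls, a log2 fold change of 4.49. Adamts13, whose protease cleaves Vwf, was among the 5 called higher but had 1 to 5 counts in the GapmeR samples, against 0 in the controls, so no fold is given.

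**Figure D4:**
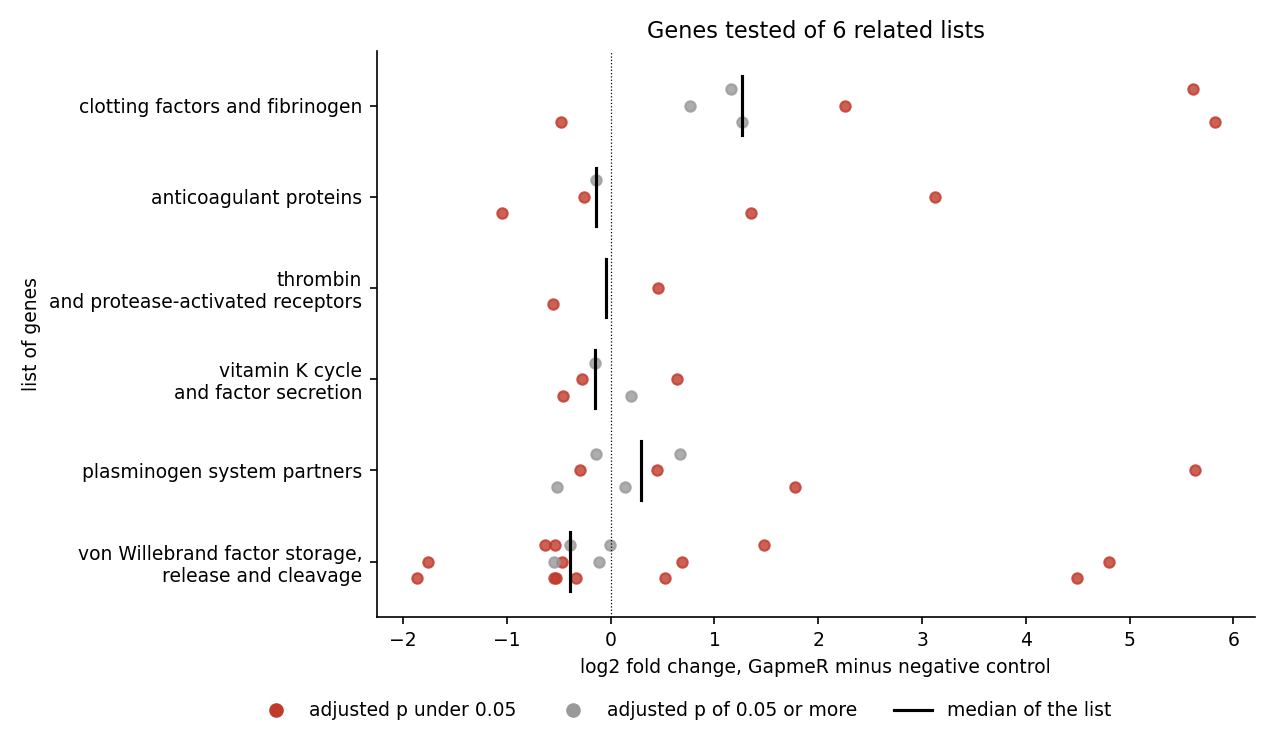
Log2 fold change (GapmeR minus negative control) of the 44 genes tested of the 6 related lists, 1 point a gene, red where edgeR's adjusted p was under 0.05, with a bar at each list's median. Points lie on both sides of 0 in every list, the medians run from -0.39 for von Willebrand factor storage to 1.26 for clotting factors, and the values above 5 belong to Serpinf2 and to F2 and Klkb1, whose controls had no count.

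The cells carried the defining genes of endothelium, and all 11 markers were tested, from Pecam1, Cdh5 and Cldn5 to Emcn. Of these, 1 was higher (Erg) and 7 were lower, beside 25.4% and 20.0% of all genes, with a median log2 fold change of -0.33. Tek (-0.15), Tie1 (0.15) and Cldn5 (0.09) did not pass. The summed level of the 11 markers was 6544 to 7525 CPM in the GapmeR samples, against 8631 to 8871 CPM in the controls. Much of that difference came from Cdh5, with means of 1733 and 2463 CPM. In these bulk samples fewer cells of a type and less RNA per cell cannot be told apart. Of the 13 macrophage and leukocyte markers, none of them at 0, 2 passed the test, both higher, and their sum was 230, 211, 360 and 393 CPM in GapmeR samples 1 to 4 and 180 and 176 CPM in the controls. Macrophages also express Plaur and Plau. Without GapmeR samples 3 and 4, a setting chosen after the data were seen, Plaur, Plat and Thbd had log2 fold changes of -1.09, -1.08 and -0.56. That setting is no test of the part of macrophages in these values. The markers of platelets, which also carry Vwf and Selp, summed to 7.88 to 9.41 CPM in the GapmeR samples, against 5.45 to 5.59 CPM in the controls. Of 4 tested, 1 was higher (Itga2b, with means of 5.35 and 1.80 CPM), and the median log2 fold change was -0.18. Pf4 (-0.10), Gp1ba (-0.47) and Gp1bb (-0.26) did not pass. Ppbp, Gp9 and Gp6 had 0 counts in both controls and at most 5 in any GapmeR sample. The hepatocyte list, fixed because the liver makes most clotting factors, summed to 20.3 to 22.3 CPM in the GapmeR samples, against 0.188 to 0.365 CPM in the controls, nearly all of it from Apoa1, and Alb had at most 2 counts. Smooth muscle and pericyte markers summed to 6.55 to 10.1 CPM against 1.19 to 1.75 CPM, with 1 of 5 tested higher (Myh11). Myh11 alone had a mean of 5.64 CPM in the GapmeR samples, against 0.308 CPM in the controls, and the other 4 tested did not pass. Of the 6 fibroblast markers 0 passed in edgeR (1, Dcn, had an unadjusted p under 0.05), and their sum was 17.2 to 22.9 CPM in GapmeR samples 1, 2 and 4, 92.0 CPM in sample 3 and 15.9 to 17.5 CPM in the controls. The part of other cell types in these results was not tested.

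The genes nearest to the 8 in pattern were found among 12772 genes with a mean of at least 1 CPM, by the root mean square difference of centred log2 CPM over the 6 samples, as a description. Plaur lay nearest to Klf4, a transcription factor of endothelium, at 0.0313, and Klf4 had a log2 fold change of -1.06. Plat lay nearest to Fndc3b (0.0258), Thbd to Fam171a1 (0.0316), Procr to Soga1 (0.0146), Plau to Mcam (0.0209) and Tfpi to Tcea1 (0.0187). Vwf and F3, at lower counts, had more distant neighbours, Enho (0.0710) and Rps29 (0.0539). The nearest gene was the same for all 8 with scaling by library size alone. That was fixed beforehand and is no check, since scaling shifts all genes of a sample nearly alike and cancels in the difference.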

How the data were processed

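RNA of 6 bEND.3 samples, 4 transfected with a GapmeR to Gm39822 and 2 with a negative control GapmeR, was sequenced after ribodepletion as paired reads. The authors trimmed the reads, aligned them to mm10 with STAR and Ensembl transcripts in the bcbio-nextgen workflow, and deposited raw gene counts. The submitters' processing notes name Trimmomatic 0.36, STAR 2.5.2b and Subread 1.5.2. The Ensembl release and the strand setting are not given in the sources used here. Samples were grouped by their titles, and 1 further per-sample column that matched no label was not used.

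Counts were tested in R 4.3.3 with edgeR 4.0.16 (quasi-likelihood, robust, TMM) over the 18234 genes that reached 5 counts in 2 or more samples, and p-values were adjusted by Benjamini-Hochberg over all of them, with 0.05 as the threshold. The SE is the size of the log2 fold change over the square root of F, and the biological coefficient of variation was 8.42%. Values in CPM were scaled by TMM. Depth was 29261988 to 37117934 counts per library, and intervals and limits of detection cover counting error and the spread between these samples only. Alternatives used DESeq2 1.42.0, limma 3.58.1 (voom), other scalings and filters, and fewer samples. The fitting script was checked on simulated data. Python 3.11.15 with scipy 1.17.1 gave the ratios, with 0.5 added to each count.

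The members and lists were chosen with earlier results of these data known. Named genes are the members, up to 4 genes per list with the largest change among those that passed with a mean of at least 1 CPM, a few genes always named, and the gene nearest to each member. The lists leave out 2 planned genes, and the ratios 2 planned pairs, that are not reported here. Motifs were chosen after sequences and results had been seen. Gene positions and promoters are from RefSeq (GRCm38.p6), which held windows for Plaur, Procr, F3 and Tfpi, and exon lengths and overlaps from GENCODE on GRCm39, matched by gene ID.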

Additional observations from a re-analysis of the deposited data

Results flagged for a closer look

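Of 35 sets of 4 GapmeR values examined, 1 had a sample far from the other 3 by Dixon's ratio of the gap to the range, and chance alone gives about 1 in 20. In the log2 ratio of Plat to Plau, GapmeR sample 2 stood at -6.70 and the others at -6.87 to -6.85, a gap of 0.914 of the range, and all 4 lay below the controls at -5.92 and -5.84.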

How the results depend on the processing

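Plaur, Plat and Thbd passed, lower, under all settings run, except that Thbd, at 1.45-fold, did not meet a 1.5-fold minimum. Their log2 fold changes ran from -1.10 to -0.93, from -1.14 to -0.96 and from -0.56 to -0.39. With 1 sample left out at a time, 3 to 4 members were lower, the fourth being Plau without GapmeR sample 4. Over those fits Plau ran from -0.22 to -0.10, Tfpi from -0.019 to 0.095 and Serpine2 from -0.35 to 0.37. With 1 GapmeR sample left out at a time, the related genes called higher ran from 13 to 15 and those called lower from 14 to 16. Over all genes 7476 to 8719 were called in those fits. In the fits without 1 of the controls, which leave 1 control sample, fewer genes were called among the related genes and among all genes. With scaling by library size alone the signs turned for F3 (0.013), Procr (0.051), Pros1 (0.0086) and S100a10 (0.0056), none of which passed in either case. Serpine2 turned to -0.052 with limma-voom and to -0.52 without GapmeR samples 3 and 4. With at least 10 counts in every sample 8 related genes were higher, since fewer were tested, and with a 1.5-fold minimum 4 were lower. The cause of the other differences was not tested.

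The replicate numbers of the titles are shared by 2 samples of each group. Deviations of same-numbered samples from their group means correlated at -0.0554 over 10922 genes in 1 pair and 0.116 in the other. With 2 controls the deviations of 1 are the opposite of the other's. The 2 values are thus not separate checks and cannot exclude pairing. The numbers were not read as pairs in the main test. With the replicate block, on 4 samples, 7812 of 17524 genes were called, 3 members were lower, with Plaur at -1.09, Plat at -1.08 and Thbd at -0.56, and Serpine2 was at -0.52. Among the genes named, Anxa2 (-0.25) and Anxa5 (-0.22) lost their call with the block. Depth limits F3 above all, at 16 to 29 counts. With 2 controls, no exact permutation test could pass 0.05.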
